A study of Mus musculus with 11 samples.

Results

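The cells described here are CD4 T cells of the mouse lung that carried transcripts of Pdcd1, Tnfrsf4 or both and no transcript of Foxp3. They were chosen by a gate on unique molecular identifiers (UMIs, each standing for 1 captured transcript) in droplet-based 3′ single-cell RNA sequencing. A barcode had to hold 1000 to 30000 UMIs with at most 14% from mitochondrial genes, at least 2 UMIs over Cd3d, Cd3e and Cd3g, at least 1 of Cd4, at least 1 over Pdcd1 and Tnfrsf4, and none of Cd8a, Cd8b1, Foxp3 or Cd79a. The gate took 1865 of 69267 kept barcodes, which is 2.69%. They are called gated cells in the text and members in the plots. The Foxp3-negative CD4 T cells numbered 3077 in all, and the 1212 of them without a UMI of either gene are called gate-negative cells below.

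Pdcd1 (chr1:94038305-94052553, minus strand, GRCm38) encodes PD-1, an inhibitory receptor that appears on T cells after antigen recognition and stays on under repeated stimulation. Tnfrsf4 (chr4:156013843-156016612, plus strand) encodes OX40, a costimulatory receptor of the TNF receptor superfamily that prolongs the survival of activated CD4 T cells. Both are carried by several kinds of antigen-experienced CD4 T cell, among them follicular helper cells, which help B cells, effector and memory helper cells, and regulatory T cells, which depend on the transcription factor Foxp3.

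The 11 lung libraries came from mice labelled WT (p21 +/+, 1 library), p21Het (p21 +/-, 3 libraries), p21mTert (+/mTert, 5 libraries) and p21mTertCD (+/mTertCD, 2 libraries). Only the first group carries no altered p21 allele, and the labels do not spell out the 2 mTert alleles further. Per the series title, mTert is induced in p21-positive cells, a class that is not limited to T cells. The mice were 18 months old, apart from the first p21Het library at 19 and the first p21mTert library at 20 by their age labels, although both titles say 18. Libraries are written as group and replicate number, as in p21mTertCD_1. The labels do not say whether each library is a separate mouse, and p-values therefore measure the spread between libraries.

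One library stood apart. p21mTertCD_1 held 672 of the 1865 cells (36.0%), and 1193 remained without it. The other counts were 64 in WT_1, 47, 167 and 99 in p21Het_1 to p21Het_3, 110, 105, 254, 141 and 69 in p21mTert_1 to p21mTert_5, and 137 in p21mTertCD_2. The median UMI count of these cells ran from 4933 to 6483 per library, against 4552 to 6908 in gate-negative cells. Summed over the cells of a library, the depth ran from 293481 UMIs in p21Het_1 to 4788997 in p21mTertCD_1. Between 4 and 20 barcodes were shared by each pair of libraries, and none of these was a gated cell in both. At least 2 UMIs of 1 of the narrower marker lists of other lineages, or over 15000 UMIs, were found in 198 of the 1865 cells (10.6%), from 4.69% to 16.8% per library.

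The label was checked on T cell genes that the gate did not use. Values are CPM, UMIs scaled to a total of 1000000, from the UMIs summed over the cells of a library. Trac, the T cell receptor alpha constant region, stood at 483 to 789 CPM over the 11 libraries, Lck, the proximal signalling kinase, at 283 to 493, and Cd2 at 333 to 752. Among natural killer and gamma delta T cell genes, Ncr1 stood at 0 to 2.87 CPM, Klrb1c at 0 to 5.74 and Trdc at 0 to 47.1. The list of 10 such genes summed to 54.5 to 161 CPM, with Eomes leading at a mean of 46.1. Natural killer receptor and granule genes outside this list, Klrd1, Klrc1 and Nkg7 among them, were high in p21mTertCD_1, as given below. The name "activated" is dealt with gene by gene below, since Cd69, an early activation marker, was not higher in these cells but slightly lower than in gate-negative cells.

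The sequences of T cell receptor beta variable segments are shown first because 1 of them, Trbv16, set p21mTertCD_1 apart. Each T cell clone uses 1 rearranged beta segment, and a 3′ library catches it only in some cells. The last 120 annotated bases of Trbv16 (chr6:41152111-41152230) and of Trbv2 (chr6:41047876-41047995), a segment frequent in other libraries, are printed 5′ to 3′ from the plus strand of GRCm38 with the GENCODE annotation. Capitals mark the codon of the conserved cysteine near the end of the segment.
Trbv16: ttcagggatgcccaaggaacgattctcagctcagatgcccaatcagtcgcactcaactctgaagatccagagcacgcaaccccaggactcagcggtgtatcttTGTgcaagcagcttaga
Trbv2: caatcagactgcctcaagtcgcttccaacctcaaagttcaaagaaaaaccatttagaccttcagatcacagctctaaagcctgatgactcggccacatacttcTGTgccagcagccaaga

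By the gate genes, the 1865 cells fell into 263 with Pdcd1 only (14.1%), 858 with Tnfrsf4 only (46.0%) and 744 with both (39.9%). Without p21mTertCD_1 they were 165 (13.8%), 692 (58.0%) and 336 (28.2%) of 1193. The share with both was 35.9% in WT_1, 14.9%, 19.8% and 19.2% for p21Het_1 to p21Het_3, 29.1%, 31.4%, 34.3%, 26.2% and 27.5% for the 5 p21mTert libraries, and 60.7% and 33.6% for the p21mTertCD pair. The p21Het libraries thus held the 3 lowest values and p21mTertCD_1 the highest, which is a description by the genes that chose the cells and was not tested. Just inside the gate lay 464 cells (24.9%) with exactly 1 UMI over the 2 genes, and the 1212 gate-negative cells, with none, lay just outside. Cd4 itself rested on exactly 1 UMI in 574 cells. In cells that should lack both genes, a UMI of either was found in 0.699% of 15593 B cells (median depth 3443 to 8343 UMIs over the libraries), 0.604% of 6623 endothelial cells (2747 to 4654) and 1.48% of 4255 epithelial cells (16701 to 20553).

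As a description of what chose the cells, Tnfrsf4 stood at 574 CPM in WT_1, at 283, 373 and 396 in p21Het, at 496, 462, 512, 417 and 391 in p21mTert, and at 498 and 511 in p21mTertCD. Pdcd1 stood at 145 CPM in WT_1, at 109, 79.4 and 60.3 in p21Het, at 190, 143, 143, 110 and 89.0 in p21mTert, and at 271 and 144 in p21mTertCD. Its highest level was thus in p21mTertCD_1.

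The genes altered in these mice were read next. Tert (chr13:73626911-73649843, plus strand), the telomerase reverse transcriptase, gave 1 UMI in WT_1, none in the 3 p21Het libraries, 3, 3, 4, 1 and 0 in the p21mTert libraries, and 14 and 2 in the p21mTertCD pair. These few UMIs allow no comparison, and 14 UMIs in p21mTertCD_1 made 2.92 CPM, below the 4.87 CPM of p21mTert_1. Cdkn1a (chr17:29090976-29100727, plus strand), which encodes the cell cycle inhibitor p21, stood at 18.2 CPM in WT_1, at 44.3, 114 and 80.4 in p21Het, at 35.7, 24.3, 25.6, 41.9 and 29.6 in p21mTert, and at 101 and 24.5 in p21mTertCD. All 5 p21mTert libraries lay below the 3 p21Het libraries, as was so for 2.18% of all genes, and the log2 difference of -1.45 (SE 0.41) did not pass the test over all genes (edgeR quasi-likelihood, adjusted p = 0.593). The 2 p21mTertCD libraries lay far apart.

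The gated cells made up a larger mean share of lung cells in both mTert groups than in p21Het, and none of these differences passed an exact permutation test. Of all kept barcodes, they were 1.17% in WT_1, 0.756%, 1.96% and 1.69% for p21Het_1 to p21Het_3, 1.77%, 1.40%, 4.02%, 2.25% and 1.46% for the 5 p21mTert libraries, and 10.2% and 2.45% for the p21mTertCD pair. The p21Het and p21mTert libraries overlapped, and both p21mTertCD libraries lay above every p21Het library. The p21mTert mean was 2.18% ± 1.09 (SD, n = 5) and the p21Het mean 1.47% ± 0.631 (SD, n = 3), a difference of 0.713 percentage points (2-sided exact permutation p = 0.429, adjusted over 6 tests 0.429). Without p21mTert_3, the highest of its group, the difference was 0.252 points. For p21mTertCD the mean was 6.35% (n = 2), 4.88 points above p21Het (exact p = 0.1, the smallest this design can give, adjusted 0.161). Without p21mTertCD_1 this difference was 0.980 points. For p21mTert minus p21mTertCD the difference was -4.17 points (exact permutation p = 0.0952, adjusted 0.161), and -0.267 points without p21mTertCD_1. Kept barcodes also differed in make-up, with 157 B cells in p21mTertCD_1 and 920 to 2308 in the other libraries. Of T cells, gated cells made up 5.82%, 11.6% and 11.0% for p21Het and 27.7% and 9.35% for the p21mTertCD pair. Thus p21mTertCD_2 lay within the p21Het range. The difference from p21Het was 9.03 points for p21mTertCD (exact permutation p = 0.4) and 1.61 for p21mTert (exact permutation p = 0.643).

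Among Foxp3-negative CD4 T cells, which removes the size of the CD4 compartment, the gated share was 50.8% in WT_1, 30.3%, 48.0% and 44.6% for p21Het_1 to p21Het_3, 38.6%, 65.2%, 70.6%, 55.1% and 54.8% for the 5 p21mTert libraries, and 82.7% and 60.9% for the p21mTertCD pair. Of the 5 p21mTert libraries, 4 lay above all p21Het libraries, and p21mTert_1 lay within their range. The p21mTert mean was 56.8% ± 12.2 (SD, n = 5) and the p21Het mean 41.0% ± 9.37 (SD, n = 3), a difference of 15.9 points (exact permutation p = 0.107, adjusted over the same 6 tests 0.161). Without p21mTert_1 it was 20.4 points with p = 0.0286, unadjusted and the smallest that an exact test of 4 against 3 libraries can give. That library and p21Het_1 carry the highest age labels and, with WT_1, the 3 libraries whose titles carry no Rep number. Within the libraries with a Rep number the difference was 15.1 points (exact permutation p = 0.133). In p21mTertCD both libraries lay above p21Het, by a mean of 30.8 points (exact permutation p = 0.1, the smallest possible) and by 19.9 points without p21mTertCD_1. The difference of p21mTert from p21mTertCD was -14.9 points (exact permutation p = 0.286, adjusted 0.343), and it was -4.05 points without p21mTertCD_1 and -25.8 without p21mTertCD_2.

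A UMI is easier to find in a deeper cell, so each cell was also thinned to 1000 UMIs. The gated share of Foxp3-negative CD4 T cells was then 24.5% in WT_1, on average 15.1% ± 4.01 (SD, n = 3) over the p21Het libraries and 24.8% ± 6.39 (SD, n = 5) over the p21mTert libraries, and 43.7% and 28.5% in the 2 p21mTertCD libraries. The difference of p21mTert from p21Het was 9.69 points at this depth (exact permutation p = 0.0714).

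**Figure D1:**
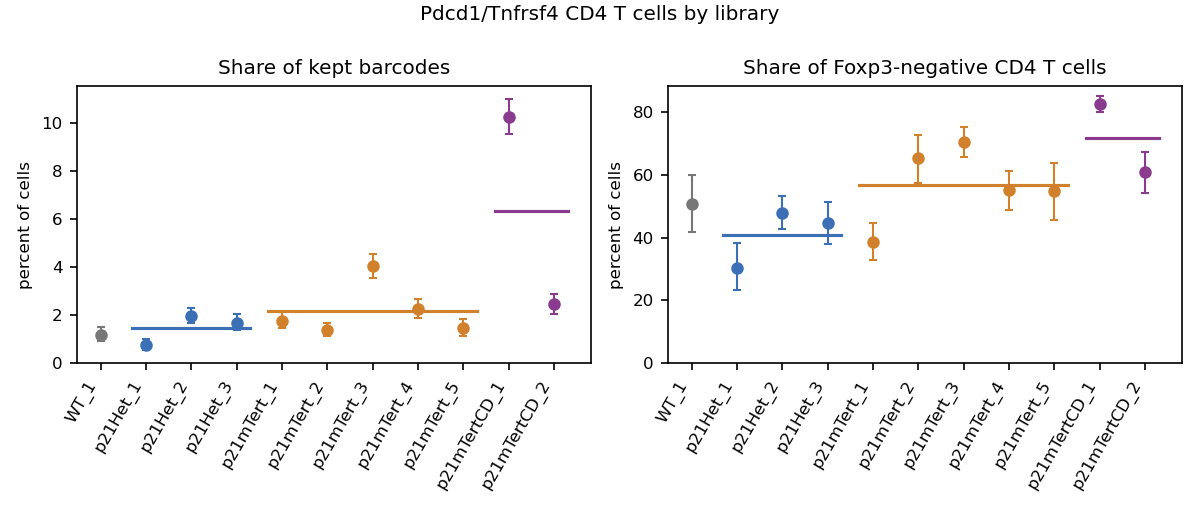
Each point is 1 library and its bar the exact 95% binomial interval, which covers counting error only; the vertical axes give the gated cells as a percent of kept barcodes (left) and of Foxp3-negative CD4 T cells (right) by group, and horizontal bars are group means. p21mTertCD_1 stands at 10.2% and 82.7%, and the p21Het libraries stay at or below 1.96% and 48.0%.

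The gated cells were then compared with the gate-negative CD4 T cells of the same library, over all 11 libraries. They had more transcripts of follicular helper genes, of inhibitory and costimulatory receptors and of several genes of the regulatory T cell program, and fewer of genes that mark naive and recirculating cells. Of 8263 genes tested with edgeR's quasi-likelihood test, with the library as a block and a Benjamini-Hochberg adjusted p under 0.05, 413 were higher (5.0%) and 387 lower (4.68%), together 9.68%. The gated cells were higher in every library for 3.51% of the genes and lower in every library for 1.06%. The median log2 difference of all genes was 0.00. These cells were gated on 2 genes that belong to the activated state, and the gate genes themselves were left out of every count.

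Of the follicular helper list, 10 of 15 tested genes rose and none fell, with a median log2 difference of 1.15. Sostdc1 (chr12:36314139-36318452, plus strand), a secreted antagonist of BMP and Wnt ligands, had the largest difference among them. It stood at 239 CPM in WT_1, at 44.3, 63.9 and 70.3 in p21Het, at 217, 302, 557, 94.0 and 47.4 in p21mTert, and at 3.97 and 363 in p21mTertCD. Gate-negative cells had 36.8 CPM in WT_1, 0 in each p21Het library, 2.24, 33.9, 31.8, 38.0 and 0 in the p21mTert libraries, and 0 and 12.8 in the p21mTertCD pair. It was higher in the gated cells of every library, by 3.65 on the log2 scale (SE 0.34, edgeR adjusted p = 2.9e-07), and nearly missing from those of p21mTertCD_1.

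Il21, the cytokine by which follicular helper cells act on B cells, stood at 44.1 CPM in WT_1, at 3.41, 12.6 and 11.5 in p21Het, at 27.6, 31.8, 73.4, 17.4 and 9.88 in p21mTert, and at 10.4 and 62.2 in p21mTertCD. Gate-negative cells had 0 to 12.7 CPM, and the gated cells were higher in all 11 libraries (log2 difference 2.97, SE 0.30, adjusted p = 8.3e-07). Cxcr5, the receptor that leads T cells into B cell follicles, rose by 1.15 (SE 0.25, adjusted p = 0.0040). Its level was 27.1 to 75.6 CPM in the gated cells of 10 libraries and 8.56 in p21mTertCD_1, where gate-negative cells had 20.2. Bcl6, the transcription factor that defines the lineage, rose by 1.20, and Izumo1r (folate receptor 4), Tox2 and Cd200 rose by 1.65, 1.88 and 1.78.

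Of the checkpoint list, 7 of 12 tested genes rose and Cd160 fell, with a median of 0.77. Lag3, an inhibitory receptor for MHC class II, stood at 64.9 CPM in WT_1, at 17.0, 40.7 and 15.8 in p21Het, at 58.4, 78.8, 143, 45.0 and 41.5 in p21mTert, and at 79.1 and 137 in p21mTertCD. In gate-negative cells it ran from 0 to 39.8 CPM and was lower in each library (log2 difference 2.36, SE 0.18, adjusted p = 4.0e-08). Tox, a regulator of chronically stimulated T cells, and Ctla4, an inhibitory receptor, rose by 1.16 and 1.00.

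Of the regulatory program list, 7 of 12 tested genes rose and none fell, with a median of 1.02, although a Foxp3 UMI had excluded a cell. Ikzf2, which encodes Helios, stood at 478 CPM in WT_1, at 310, 312 and 212 in p21Het, at 432, 332, 390, 305 and 172 in p21mTert, and at 77.7 and 443 in p21mTertCD. Gate-negative cells ran from 14.6 to 71.6 CPM, without overlap (log2 difference 2.75, SE 0.22, adjusted p = 5.0e-08). Nrp1, a receptor found on thymus-derived regulatory T cells, rose by 1.36 and the cytokine Il10 by 2.07. Of the 355 Foxp3-positive CD4 T cells, 120 (33.8%) were known by exactly 1 Foxp3 UMI, and 318 (89.6%) carried a Pdcd1 or Tnfrsf4 UMI. Regulatory T cells whose Foxp3 was not captured can therefore lie inside the gate, and their part in these differences was not tested.

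Of the costimulation list of TNF receptor family and NF-kappaB genes, 7 of 17 rose and none fell (median 0.32), and 14 rose when library totals replaced the TMM scaling, which moved the median of all genes by 0.13. Tnfrsf18 (GITR), a relative of OX40, was the steadiest of them, at 140 to 294 CPM in gated and 66.1 to 108 in gate-negative cells (log2 difference 1.03, adjusted p = 2.6e-08). Tnfrsf9 (4-1BB), another member of the family, rose by 2.30, and Icos, a costimulatory receptor of the CD28 family, by 0.32.

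Of the activation and memory list, 10 of 23 genes rose and 1 fell (median 0.31). Among those that rose were Tnfsf8 (CD30 ligand) by 1.20, Maf by 0.52 and S100a4 by 0.35 (adjusted p = 0.032). The gene that fell was Cd69, which was lower by a log2 difference of -0.26 (adjusted p = 0.0286). It ran from 261 to 555 CPM in gated and 266 to 530 in gate-negative cells. For scale, library totals in place of TMM moved the median of all genes by 0.13. Cd40lg, the ligand by which helper cells license B cells and dendritic cells, did not pass the test (log2 difference 0.11, adjusted p = 0.514).

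Of 14 genes of the naive and central list, 11 fell and none rose (median -0.90). With library totals in place of TMM, 8 fell and 1 rose. Lef1, a transcription factor of naive T cells, ran from 55.9 to 145 CPM in gated and from 70.0 to 413 in gate-negative cells, and was lower in each of the 11 libraries (log2 difference -1.41, SE 0.15, adjusted p = 1.8e-06). Igfbp4 fell by 1.92 and Ccr7, a chemokine receptor that leads T cells into lymph nodes, by 0.87. Satb1, a chromatin organizer, fell by 1.53, with p21mTertCD_1 as an exception, where gated cells had 201 CPM and gate-negative cells 91.4.

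Of the other helper lists, type 2 genes rose and type 17 and cytotoxic genes fell where they were called. Of 11 listed type 2 genes, Gata3, Il1rl1 (the IL-33 receptor), Il10 and Areg (amphiregulin) rose, Areg by 2.54 and Il1rl1 by 1.92. They do not single out type 2 helper cells. Il10 is also counted in the regulatory program list. Il1rl1 stood higher still in Foxp3-positive cells, at a mean of 148 CPM against 14.7 in the gated cells of the same 9 libraries. Of 12 type 17 genes 3 fell and none rose (median -0.48), and of 15 type 1 genes 1 rose and 2 fell. Of 15 cytotoxic genes none rose, and Ccl5 and Ctsw fell by 0.74 and 0.60. Without p21mTertCD_1, 6 of those 15 fell. Of 16 proliferation genes 2 rose, 8 of 15 without p21mTertCD_1, and none without p21mTertCD_2. None rose either after barcodes with other lineages' markers and barcodes over 15000 UMIs were left out together.

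The single genes with the largest rises that the rule for named genes picked included several outside the lists. Plagl1, a zinc finger transcription factor, rose by 4.27 (SE 0.40, adjusted p = 2.9e-07), from 0 to 4.77 CPM in gate-negative cells to 0.418 to 64.5 in gated cells, lowest in p21mTertCD_1. Tshz2, another zinc finger factor, rose by 3.48, Cacna1d, a voltage-gated calcium channel subunit, by 2.79, and Itgb8, an integrin subunit that activates latent TGF-beta, by 2.79. Gpm6b, Fam43a and Spock2 rose by 2.46, 2.38 and 2.13. Of the 30 genes named by the rule in this comparison, 25 passed in every alternative in which they were fitted, and none changed direction.

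**Figure D2:**
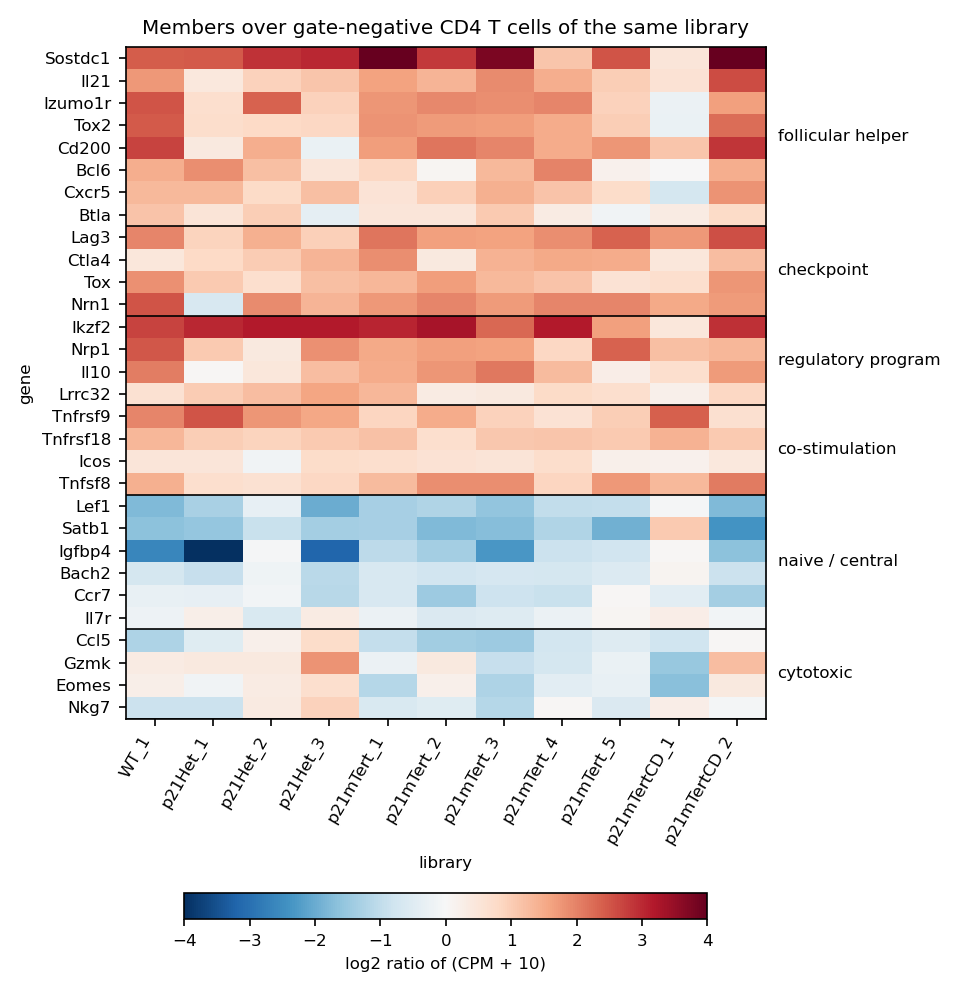
The heat map shows, for 30 genes in rows by group and the 11 libraries in columns, the log2 ratio of CPM + 10 in gated over gate-negative CD4 T cells, with the colour scale limited to -4 and 4. Sostdc1 is red in 10 columns and pale in p21mTertCD_1, and Lef1, a naive gene, is below 0 in all 11.

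RNA of other lung cells moved with the gate in part. Of the 10 tested endothelial and fibroblast markers, 8 were higher in the gated cells and none lower (median 2.30), and their summed level was 144 to 1218 CPM in gated cells, highest in p21mTertCD_2, against 70.0 to 178 in gate-negative cells. The 10 epithelial markers gave no call, with sums of 1056 to 19126 CPM in gated cells, highest in p21Het_1, and 1118 to 7669 in gate-negative cells. Of 15 myeloid markers 5 were lower and none higher. Without the barcodes that carried the narrower lists' markers or over 15000 UMIs, 342 of 7565 genes rose and 345 fell. Of these, 10 of 14 follicular helper genes rose and 1 fell, 7 of 12 checkpoint genes rose and 1 fell, and 8 of 12 regulatory program genes rose and none fell.

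A second comparison set the gated cells beside the Foxp3-positive CD4 T cells of the same library, in the 9 libraries with enough of the latter, without p21mTert_5 and p21mTertCD_1 (13 and 17 Foxp3-positive cells). The gated cells had more type 17, cytotoxic and naive transcripts and less of the regulatory program. Of 6570 genes tested with edgeR, 396 were higher (6.03%) and 347 lower (5.28%), together 11.3%. In all 9 libraries 3.18% were higher and 3.5% lower. The median of all genes was 0.00.

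Of the regulatory program list, 9 of 12 fell and none rose (median -1.71), so that the program whose genes rose against gate-negative cells stayed below its level in Foxp3-positive cells. Ikzf2 stood at 874 to 1842 CPM in the Foxp3-positive cells and at 212 to 478 in the gated cells of these 9 libraries (log2 difference -1.81). Klrg1, a receptor of terminally differentiated cells, fell by 4.48, Il1rl1 by 3.32, Lrrc32 (GARP), which displays latent TGF-beta, by 2.82, Il2ra (CD25) by 1.80 and Ctla4 by 1.61. Of 16 proliferation genes 11 fell (median -0.94), and none of the 9 that could be tested was called after barcodes with other lineages' markers and barcodes over 15000 UMIs were left out together. That removal also left 7 libraries with enough cells, without p21mTert_1 and p21mTert_2.

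Helper cytokines were among the largest rises. Il17a stood at 228 CPM in WT_1, at 78.4, 140 and 40.2 in p21Het, at 458, 57.6, 139 and 66.4 in p21mTert_1 to p21mTert_4, and at 198 in p21mTertCD_2. In Foxp3-positive cells it was 22.6 CPM in p21Het_2 and 0 in the other 8 of these libraries (log2 difference 5.19, edgeR adjusted p = 1.8e-08). Il17f and Il17re had no UMI in the Foxp3-positive cells and were at least 34.4-fold and 14.6-fold higher in the gated cells, taking 3 counts over the group as the floor. Of 9 tested type 17 genes 6 rose and 1, Rora, fell (median 2.11).

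Il21 rose by 4.96 and Sostdc1 by 3.85 against Foxp3-positive cells, and 6 of 13 follicular helper genes rose while Izumo1r and Rgs10 fell. Cd40lg stood at 120 to 217 CPM in the gated cells and 10.1 to 46.9 in the Foxp3-positive cells, and rose by 2.95. Of 11 cytotoxic genes 7 rose and 1, Gzmb, fell (median 2.25), with Gzmk up by 4.33 and Eomes by 3.77. Of 14 naive and central genes 12 rose (median 0.86). Of 5 tested erythroid genes 4, all haemoglobin genes, were also higher, with a median of 0.95.

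The third comparison split the gate, setting cells with Pdcd1 only against cells with Tnfrsf4 only in the 9 libraries that had at least 10 of each, without WT_1 (6 Pdcd1-only cells) and p21mTert_5 (8). A minority of the tested cytotoxic genes were called higher in the Pdcd1-only cells. Called higher in the Tnfrsf4-only cells were some genes of naive and recirculating cells and some of ribosomal proteins. Of 5296 genes tested with edgeR, 17 were higher in the Pdcd1-only cells (0.321%) and 40 lower (0.755%), together 1.08%. In all 9 libraries 0.68% were higher and 1.21% lower. The count fell to 24 when p21mTert_4 was left out.

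Gzmk, a granzyme of memory-like cytotoxic cells, stood at 48.5, 174 and 245 CPM in the Pdcd1-only cells of p21Het, at 132, 50.4, 431 and 277 in p21mTert_1 to p21mTert_4, and at 202 and 502 in p21mTertCD. The Tnfrsf4-only cells had 17.4, 21.6 and 32.8 CPM in p21Het, then 80.4, 32.7, 11.7 and 20.6 in the 4 p21mTert libraries, and 78.9 and 28.1 in the p21mTertCD pair. It was higher in the Pdcd1-only cells of all 9 libraries (log2 difference 2.67, SE 0.37, edgeR adjusted p = 0.00098), and by 3.03 without p21mTertCD_1.

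Ccl5, a chemokine of cytotoxic and memory T cells, rose by 3.16, Eomes, the transcription factor of the Gzmk-bearing state, by 2.63, and Nkg7, a granule protein, by 2.53. Nkg7 was almost equal in the 2 kinds of cell of p21mTertCD_1, at 1541 and 1395 CPM, whereas the other 8 libraries had 194 to 1171 against 40.6 to 143. Nr4a2, induced by T cell receptor signals, rose by 1.63. Of 13 cytotoxic genes 4 rose and none fell (median 1.58).

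Klf2, which keeps T cells recirculating, was lower in the Pdcd1-only cells, at 360 to 808 CPM against 632 to 1201 in Tnfrsf4-only cells, in each of the 9 libraries (log2 difference -0.73, SE 0.09, adjusted p = 0.00020). S1pr1, the receptor for leaving tissue that Klf2 controls, fell by 0.98, and of 14 naive and central genes 7 fell (median -0.62). Tnfrsf18 fell by 0.87. The ribosomal protein genes Rpl10a, Rps19, Rpl22l1, Rpl29, Rplp0 and Rpl39 were also lower in the Pdcd1-only cells, with log2 differences of -0.52 to -0.40. Without p21mTertCD_1, the MHC class II genes H2-Eb1 and H2-Aa were lower too, with log2 differences of -2.40 and -1.92. The part of other cells' RNA in this was not tested. None of 13 follicular helper genes was called. Sostdc1 had no UMI in the Pdcd1-only cells of 4 of the 9 libraries, and was found in those of the others. Cells with both genes had it at 152 CPM or more in each library but p21mTertCD_1, where it was 6.33, and at most 824 (p21mTert_3). Of the 24 genes named by the rule, Gzmk, Nr4a2 and Klf2 passed in every alternative. A Cd4 count of exactly 1 UMI was found in 31.9% of Pdcd1-only, 38.5% of Tnfrsf4-only and 21.5% of cells with both. With 2 or more Cd4 UMIs required, 6 libraries could be tested, and 3 of 13 cytotoxic genes rose and none fell.

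**Figure D3:**
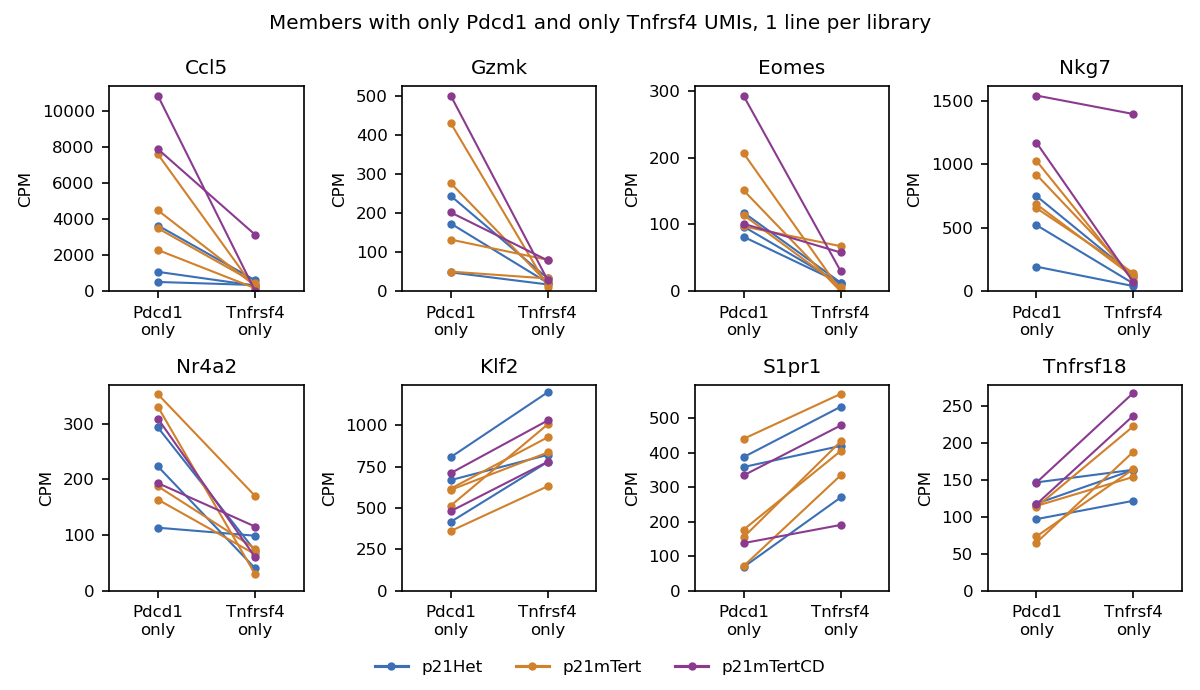
CPM of 8 genes on linear axes from 0 in Pdcd1-only (left) and Tnfrsf4-only cells (right), with 1 line per library over 9 libraries. Lines for Gzmk fall from left to right and lines for Klf2 rise in all 9.

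Within the gated cells, no gene passed the test between genotypes. Of 8264 genes fitted with edgeR over the 10 libraries of the 3 altered genotypes, 0 (0.0%) were called in p21mTert against p21Het, in p21mTertCD against p21Het and in p21mTert against p21mTertCD. At an unadjusted p under 0.05 there were 568, 635 and 591, and DESeq2 called 11, 21 and 1. The comparisons share libraries and are given side by side. WT has 1 library and entered no test.

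Of the 10 type 17 genes tested, none was called by edgeR in either comparison with p21Het. DESeq2 called 4 of them lower in p21mTertCD, and over all genes it called 13 of 8264 lower. The 4 were Tmem176b (DESeq2 adjusted p = 0.00051), Tmem176a, Rora and Ltb4r1 (adjusted p = 0.010), in a fit that included p21mTertCD_1. Tmem176a, a membrane protein abundant in RORgt-dependent cells, stood at 104 CPM in WT_1, at 351, 308 and 327 in p21Het, at 277, 63.7, 180, 243 and 90.9 in p21mTert, and at 56.8 and 92.2 in p21mTertCD. Each mTert group lay below the 3 p21Het libraries, as was so for 2.18% of all genes in p21mTert and 9.58% in p21mTertCD. The log2 difference was -2.14 for p21mTertCD (edgeR adjusted p = 0.289, DESeq2 adjusted p = 0.0011), -1.82 without p21mTertCD_1, and -0.94 for p21mTert (edgeR adjusted p = 0.659).

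Rora, a nuclear receptor of type 17 and type 2 cells, stood at 354, 312 and 501 CPM in p21Het, at 352, 256, 278, 426 and 336 in p21mTert, and at 121 and 207 in p21mTertCD. Its p21mTertCD values were the lowest of the 11 libraries, with WT_1 next at 215 (log2 difference from p21Het -1.24, edgeR adjusted p = 0.289, DESeq2 adjusted p = 0.0022, and -0.91 without p21mTertCD_1). The median log2 difference of the 10 tested type 17 genes was -0.71 for p21mTert and -1.81 for p21mTertCD, against medians of 0.00 and -0.01 for all genes. Without p21mTertCD_1 the p21mTertCD median was -1.03, over 11 tested genes. Among the 11 libraries, p21mTertCD_1 had the lowest summed type 17 level and p21mTert_1 the highest. The sum in p21mTertCD_2, 707 CPM, lay above those of WT_1, p21mTert_2 and p21mTert_5 and below those of all p21Het libraries. Il17a had a log2 difference of 0.65 and 0.49 (edgeR adjusted p = 0.955 and 0.981), the second being 1.13 without p21mTertCD_1 (SE 1.14).

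Ifng, the type 1 effector cytokine, stood at 49.3 CPM in WT_1, at 17.0, 29.1 and 7.18 in p21Het, at 64.9, 53.1, 127, 40.9 and 35.6 in p21mTert, and at 130 and 97.8 in p21mTertCD. Each mTert group, and WT_1, lay above the 3 p21Het libraries. The share of all genes that did so in both mTert groups at once was not counted. The log2 difference was 2.60 for p21mTertCD (edgeR adjusted p = 0.289, DESeq2 adjusted p = 0.0060), 2.33 without p21mTertCD_1, and 1.82 for p21mTert (edgeR adjusted p = 0.593). Libraries without overlap were common across all genes, at 2.81% higher and 2.18% lower for p21mTert against p21Het, 9.34% and 9.58% for p21mTertCD against p21Het, and 4.33% and 3.36% for p21mTert against p21mTertCD.

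RNA of epithelial and myeloid cells in the gated barcodes also differed between these libraries. Sftpc, the surfactant gene of alveolar type 2 cells, stood in the gated cells at 335 CPM in WT_1, at 11680, 7376 and 317 in p21Het, at 433, 511, 1959, 558 and 417 in p21mTert, and at 976 and 457 in p21mTertCD. Lyz2, a myeloid and type 2 cell gene, stood at 85.6 CPM in WT_1, at 4344, 1859 and 768 in p21Het, at 139 to 376 in p21mTert, and at 707 and 167 in p21mTertCD. The summed myeloid list overlapped between the groups, at 5632, 4555 and 1320 CPM in p21Het, 359 to 2865 in p21mTert, and 4677 and 325 in p21mTertCD. The epithelial list had a median of -1.75 for p21mTert and -2.49 for p21mTertCD against p21Het. Of the 8 genes DESeq2 called lower in p21mTert than in p21Het, Lyz2, Clu, Car4, Kdr, Emp2 and Sfta2 are genes of alveolar, endothelial or myeloid cells. The summed epithelial list of p21Het_1 was 19126 CPM in gated and 6711 in gate-negative cells. The part of such RNA, free or from mixed barcodes, in the other differences was not tested.

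The gated cells of p21mTertCD_1 differed from those of all other libraries, including the second p21mTertCD library. By a rule of at least 50 CPM and at least 4 times the highest other library, 11 genes stood out in it, and at most 8 (p21Het_2) in any other library. Gm156 (chr6:129766568-129784270, minus strand), a gene of the natural killer receptor region, had 479 UMIs (100.0 CPM) there and 0 among 7785996 UMIs of gated cells elsewhere, which makes it at least 260-fold higher with a floor of 3 counts over the group. Lgals7, a galectin, stood at 367 CPM in p21mTertCD_1 and at 0 to 12.2 in the other 10 libraries.

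Receptors and effectors of cytotoxic cells were among the 11. Klrd1 and Klrc1, which pair as the CD94 and NKG2A inhibitory receptor, stood at 214 and 144 CPM, against at most 33.0 and 25.8 elsewhere. Nkg7 stood at 1581 CPM against at most 393, and Serpinb9, a granzyme B inhibitor, at 231 against at most 54.6. Csf2, which encodes GM-CSF, stood at 148 CPM against at most 27.1, Havcr2 (TIM-3) at 80.6 against at most 14.6, and Ifitm1 at 589 against at most 65.9. The summed cytotoxic list was 6424 CPM there, and 869 (WT_1) to 4653 (p21mTert_5) elsewhere. The summed myeloid list was also high there, at 4677 CPM against 325 in p21mTertCD_2, and its part in these values was not tested.

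The same cells were low in follicular and lymph node genes. Besides Sostdc1 at 3.97 CPM, Izumo1r was 7.52 against 96.2 to 379 elsewhere, and Ccr7 was 7.93 against 116 to 501. The summed follicular helper list was 370 CPM, the lowest of the 11 libraries, and 2349 in p21mTert_3, the highest. The summed type 17 list was lowest there as well, at 352 CPM, and highest in p21mTert_1 at 1631. Gate-negative CD4 T cells of p21mTertCD_1 shared part of this, with Ccl5 at 6256 CPM and Nkg7 at 1327, both the highest of the 11 libraries. Klrd1, Klrc1, Ifitm1 and Serpinb9 stood at 92.6, 76.0, 135 and 78.3 CPM in them, above the gated cells of every other library. Lgals7 and Gm156 were at 7.12 and 13.1 CPM in them, far below the gated cells of the same library.

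**Figure D4:**
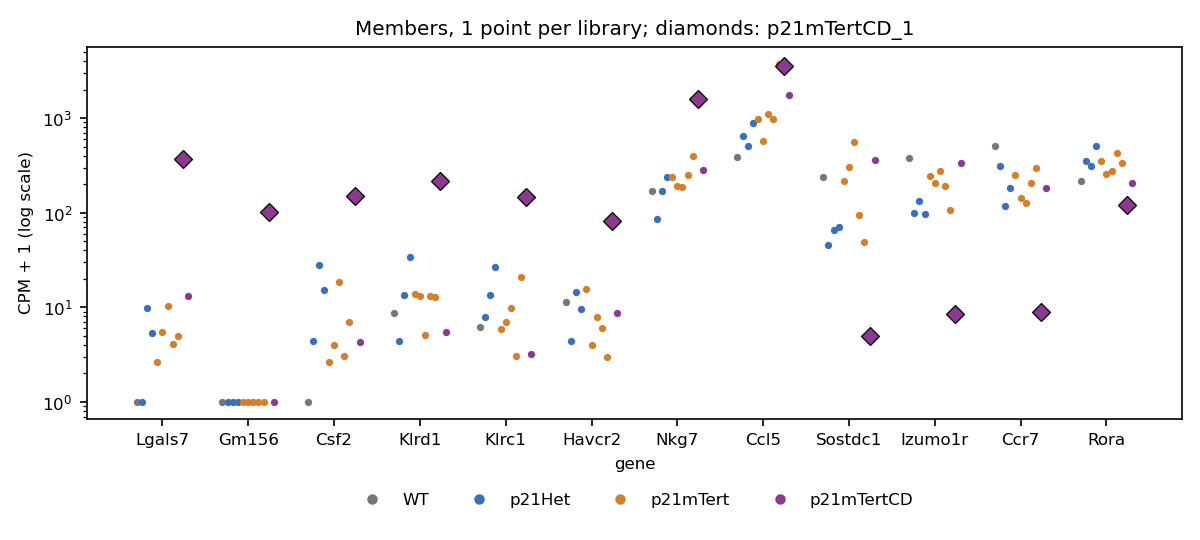
CPM + 1 of 12 genes on a log axis in the gated cells, with 1 point per library and p21mTertCD_1 as diamonds. The diamonds lie above all other points for Lgals7, Klrd1 and Csf2 and below them for Sostdc1 and Ccr7.

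The segment printed above marked many of these cells. A beta segment could be read as exactly 1 Trbv gene in 161 gated cells of p21mTertCD_1, and 79 of them had Trbv16 (49.1%, exact 95% interval 41.1% to 57.1%). In the other 10 libraries together, 10 of 252 such cells had it (3.97%, 1.92% to 7.18%). The intervals cover counting error only and treat cells as independent, which cells of 1 library need not be. Trbv16 was read here because it was the most frequent segment of p21mTertCD_1, so these values are a description and not a test. Within p21mTertCD_1, Trbv16 was found in 63 of 107 cells with both gate genes (58.9%), 12 of 31 Tnfrsf4-only cells (38.7%) and 4 of 23 Pdcd1-only cells (17.4%). In gate-negative cells of that library it was 1 of 30, in CD8 T cells 7 of 245 (2.86%), and in T cells without Cd4 or Cd8 UMIs 7 of 51 (13.7%).

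Segments were more mixed in the other libraries with at least 28 readable cells. The most frequent made up 25% in p21Het_2 (Trbv19, 7 of 28), 29.0% in p21mTert_2 (Trbv2, 9 of 31), 20.8% in p21mTert_3 (Trbv19, 15 of 72), 29.4% in p21mTert_4 (Trbv2, 10 of 34) and 18.2% in p21mTertCD_2 (Trbv2, 6 of 33). Frequent segments were seen among CD8 T cells, with Trbv12-2 in 36 of 74 in p21mTertCD_2 (48.6%) and Trbv16 in 47 of 175 in p21mTert_2 (26.9%). The chance that 2 gated cells of a library share a segment was 26.3% in p21mTertCD_1 and 11.5% in its gate-negative cells. Over the 3 libraries with enough cells of both kinds, the mean difference was 6.97 points (exact permutation p = 0.25, the smallest possible). It was 3.05 points without p21mTertCD_1. Over the 8 libraries with at least 10 cells of both kinds, a limit chosen after the data were seen, it was 3.96. The exact permutation p was then 0.141, where the smallest possible was 0.00781. A shared segment is not a shared receptor. With cells that had more than 1 Trbv gene included, Trbv16 was in 86 of 171 gated cells of p21mTertCD_1. A Trav gene was caught in 16 of these 86, and no single Trav gene was found in more than 2 of them. Trav16 and Trav16n were each found in 2, and genes of a family were counted apart.

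Inside p21mTertCD_1, the 79 Trbv16 cells and the 82 cells with 1 other segment were set side by side as a description, chosen after their values were seen, with exact Poisson intervals that cover counting error in 1 library. Csf2 stood at 281 CPM (239 to 327) in Trbv16 cells and 26.1 (15.2 to 41.7) in the others. Lgals7 stood at 610 and 291 CPM, and Serpinb9 at 371 and 164. Ccl5 ran the other way, at 779 and 6448 CPM, as did Gzmk at 8.62 and 152 and Eomes at 5.17 and 115. Klrd1, at 281 and 209 CPM, and Nkg7, at 1680 and 1599, were high in both sets. Csf2 was thus high where Ccl5 and Gzmk were low.

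**Figure D5:**
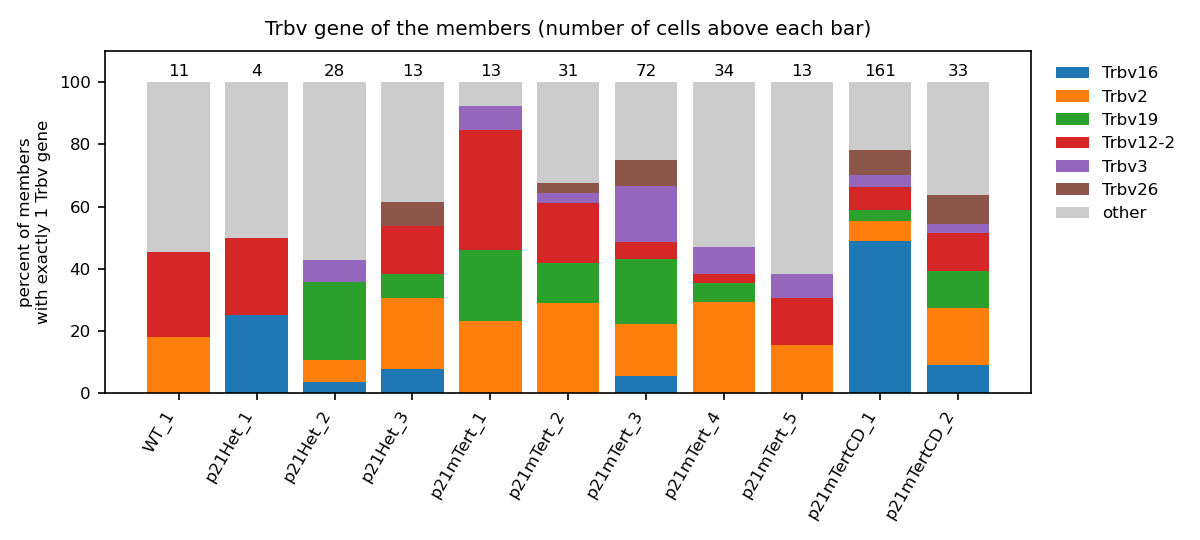
Stacked bars give, for each library, the percent of gated cells with exactly 1 Trbv gene that carried each segment. Trbv16 fills 49.1% of the bar of p21mTertCD_1, over 161 cells.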

How the data were processed

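Droplet-based 3′ RNA sequencing (10x V2 kit, per the labels) was deposited for 11 lung libraries as raw UMI counts per gene and barcode; per the labels' protocols, the authors mapped reads to mm10 with Cell Ranger. The sources give conflicting Cell Ranger versions, and none is stated. Barcodes were gated as described in the report, and counts were summed per library and cell set. Library totals ran from 42038434 to 85988955 UMIs.

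The cells, gene lists and tests were chosen with earlier results of these data known. Genes were tested with edgeR 4.0.16 (quasi-likelihood, TMM scaling) in R 4.3.3, with the library as a block where cell sets of the same libraries were compared and with 20 or more cells per set (10 for the split by gate gene). Adjusted p-values of genes are Benjamini-Hochberg over all genes tested, with a threshold of 0.05. Those of DESeq2 are over the genes left by its own filter on low counts, which can be fewer. Shares were compared by exact 2-sided permutation over libraries, and 95% intervals are Clopper-Pearson from scipy 1.17.1 (counting error only). Python 3.11.15 and matplotlib 3.10.9 were used for sums and plots. The edgeR step was run on simulated counts with some genes changed 4-fold. For gated against gate-negative cells it recovered 100% of them with 7 false calls. For p21mTert against p21Het it recovered 95% with 9 false calls. The simulation gave every gene the same spread and held no library that stood apart, so it does not cover a case like p21mTertCD_1.

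Named genes were the called genes with the largest change, at least 20 CPM in the higher set and the same direction in every library (up to 15 each way), list members by level or change, and genes at least 4 times their next library. Some genes outside this rule were chosen after their values were seen. They were Tmem176a, Tmem176b, Ltb4r1, Rora, Ifng, Sftpc, Lyz2, H2-Eb1, H2-Aa, the T cell receptor genes and the genes read in Trbv16 cells. No doublet caller was run. Barcodes with 2 or more UMIs of another lineage's narrower markers, or over 15000 UMIs, were left out as an alternative. DESeq2 1.42.0, limma 3.58.1 (log2 of CPM + 10), other scalings and filters, a replicate block and each library left out were the other alternatives.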

Additional observations from a re-analysis of the deposited data

Results flagged for a closer look

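In the gated cells of p21mTert_5, Ccl5 stood at 3740 CPM, apart from the other 4 p21mTert libraries, which ran from 565 to 1110 CPM. The gap to the nearest library made up 0.828 of the whole range of the 5 libraries, above Dixon's limit. This was 1 of 21 groups tested in this way, of which chance alone would set apart about 1. Its gate-negative CD4 T cells had 5388 CPM.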

How the results depend on the processing

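Between gated and gate-negative cells 800 genes were called, and 1251 with library totals in place of TMM (1023 higher, 228 lower), 514 in libraries with a Rep number, 344 without the library block and 431 with 2 or more Cd4 UMIs, a limit chosen after the data were seen. Leaving out 1 library gave 637 to 884. Against Foxp3-positive cells (743), 476 were called without the library block and 286 with 2 or more Cd4 UMIs, and 593 to 728 with 1 library left out. With library totals, 317 were higher and 490 lower.

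The split by gate gene gave 57 calls, and 98 with DESeq2, 37 with library totals (17 higher, 20 lower), 259 without a filter on low counts, 30 with a Rep number, 10 without the library block, 36 with limma, 105 without barcodes of the narrower lists or over 15000 UMIs (chosen after the data were seen), 12 with 2 or more Cd4 UMIs, and 24 to 49 with 1 library left out.

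Between genotypes (0 in each), DESeq2 called 11, 21 and 1 gene for p21mTert against p21Het, p21mTertCD against p21Het and p21mTert against p21mTertCD. Without a filter on low counts these were 278, 335 and 379, and only the groups compared gave 3 for p21mTert against p21Het. With 1 library left out they ran from 0 to 12, 0 to 183 and 0 to 394. The highest came without p21Het_3 in the first and without p21mTertCD_2 in the others, where p21mTertCD_1 alone stands for its group and is assumed to vary like the rest. The cause of these shifts was not tested.

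With 1 library left out, the share of kept barcodes differed by 0.252 to 0.958 points (p21mTert minus p21Het), 0.980 to 8.78 (p21mTertCD minus p21Het) and -8.07 to -0.267 (p21mTert minus p21mTertCD), and the share of Foxp3-negative CD4 T cells by 10.6 to 20.4, 19.9 to 41.7 and -25.8 to -4.05. All kept their direction, and 1 passed 0.05 (without p21mTert_1, 20.4 points). The sharing of Trbv segments differed by 3.05 to 9.75 points.

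Pairing of libraries by replicate number was not settled. The deviations of same-numbered libraries from their group means correlated at -0.207 to 0.425 over 2239 genes. Centring on group means makes the p21mTertCD pair mirror images, so these values cannot decide it. The highest was between p21Het_1 and p21mTert_1, whose titles carry no Rep number. Their kept barcodes had median mitochondrial shares of 6.30% and 6.46%, against 2.82% to 4.28% in libraries with a Rep number. With the replicate block, p21mTert minus p21Het was 0.929 points of kept barcodes (exact p = 0.5) and 17.2 of CD4 T cells (exact p = 0.25), and no gene was called between genotypes.

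A planned removal of barcodes by wider marker lists was not run, since it would have marked 1851 of the 1865 cells. The depth of p21Het_1, with 293481 UMIs over 47 cells, limits its values most, and genes under about 20 CPM rest on few UMIs there.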
